A study of Mus musculus with 19 samples.

Results

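Knockdown of *Spehd*, a long noncoding RNA also named lnc12928, by a single short hairpin RNA (shRNA) was compared with a control shRNA in common myeloid progenitors (CMP). The 3 CMP libraries labelled 12928-10, called sh10 here, were set against the 4 CMP libraries carrying an shRNA to Renilla luciferase, a gene that mice lack. These are 7 of the 19 RNA sequencing libraries of the series. The members were all the libraries with these labels, and every gene counted in them was considered.

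All 7 libraries came from C57BL/6 mouse cells. E-SLAM hematopoietic stem cells (HSCs) of C57BL/6 donors were transduced with a vector in which a doxycycline-responsive promoter drives the fluorescent protein zsGreen together with the shRNA, and the viral SFFV promoter drives the transactivator rtTA. They were transplanted into sub-lethally irradiated C57BL/6-CD45.1; cKit-w41 recipients that were 9 to 12 weeks old. After 10 weeks of reconstitution the animals received doxycycline in their food for 6 days, and zsGreen-positive CMP were sorted from lineage-depleted bone marrow. The Renilla group carried the same vector and received the same doxycycline, so the groups differ by the shRNA alone as far as the labels say. The recipients kept part of their own blood system and carry a hypomorphic *Kit* allele, and cells of 1 transduction well went into several animals. The labels give replicate letters without naming animals, so p-values measure only the spread between these libraries, which may be partly technical.

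CMP are progenitors downstream of the stem cell that give rise to granulocytes and macrophages on one side and to megakaryocytes and red cells on the other. They lie in the fraction of marrow that expresses Kit and lacks Sca1 (*Ly6a*) and the markers of mature lineages. An shRNA is cut by the cell's own small RNA machinery into a guide that pairs with its target. Its bases 2 to 8, the seed, can also pair with 3′ UTRs of other transcripts in the manner of a microRNA, which is why both guides are shown here, 5′ to 3′, with the seed in capitals.
sh10 guide: uACAAAGUcagcuuuuccucuc
Renilla guide: uAGAUAAGcauuauaauuccua

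The full 22 base target of either guide was found in 0 of 141767 annotated transcripts. No gene in the count files is named *Spehd*, so the degree of knockdown could not be read from them.

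The libraries were close in quality but not in depth. The sh10 libraries held 4918631, 5228700 and 4992896 counts in genes and the Renilla libraries 3857980, 4191537, 4314959 and 4078804, so every sh10 library was the deeper (ratio of means 1.23, exact two-sided permutation test p = 0.0571, the smallest that 3 against 4 allows). Genes with a count numbered 18552 to 20275 and overlapped between the groups (p = 0.571, exact permutation test). Pearson correlations of log CPM across genes were 0.978 to 0.981 within sh10, 0.949 to 0.962 within Renilla and 0.932 to 0.959 between them. With log2 total counts as a covariate no gene passed in either direction (edgeR, 709 of 12784 at an unadjusted p under 0.05). Depth and shRNA cannot be told apart here.

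Levels are given as CPM, counts scaled to a common library total with TMM factors. The markers of the sort were at the levels the label asks for. *Kit*, the receptor for stem cell factor, stood at 730, 747 and 744 CPM with sh10 and at 699, 795, 673 and 638 with Renilla. The levels overlapped (adjusted p = 0.463, edgeR). *Ly6a* lay at 2.55 to 7.51 CPM over the 7 libraries. The B cell genes *Cd79a*, *Pax5*, *Ms4a1* and *Ebf1* all lay under 1 CPM. Other genes of B cells were present, with *Cd79b*, a B cell receptor chain, at 22.7 to 61 CPM, *Ighm*, the mu heavy chain, at 123 to 221 CPM and *Igkc*, the kappa light chain, at 0.824 to 16.7 CPM, and their levels overlapped between the groups. *Ly6g*, a marker of mature neutrophils, was at 0 in every library. Of 12 tested gate markers 2 were lower with sh10, *Cd3e*, described below, and *Ptprc*, the pan-leukocyte protein CD45 (log2 -0.46, adjusted p = 0.0376, edgeR), whose groups overlapped. Genes of natural killer (NK) and T cells were not absent from the Renilla libraries, and they lead the results.

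Among 12784 genes with enough counts, 523 were lower with sh10 (4.09% of those tested) and 629 were higher (4.92%) at an adjusted p under 0.05 (edgeR quasi-likelihood test, Benjamini-Hochberg). Of the calls, 54.6% were higher. Upper quartile scaling gave 859 lower and 514 higher, with 37.4% higher. The falls reached further than the rises, since 216 lower genes changed by more than 1 on the log2 scale and 56 higher genes did. CPM values of the groups did not overlap for 1824 genes that were lower (14.3%) and 1608 that were higher (12.6%). The number of calls rested on each sh10 library. It fell to 79 lower and 82 higher without sh10 A, to 70 and 123 without sh10 B and to 162 and 177 without sh10 C. Without Renilla A it was 305 and 474, and without Renilla D 279 and 419, while 59 lower and 63 higher genes passed in all 7 fits that left out 1 library.

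The largest falls were in genes of NK and T lymphocytes. *Il2rb* encodes the receptor chain for interleukins 2 and 15 that NK cells depend on (chr15:78479256-78495271, minus strand, mm10). It stood at 28.6, 21.5 and 27.1 CPM with sh10 and at 267, 137, 163 and 132 CPM with Renilla. Every Renilla library lay above every sh10 library, a 6.78-fold lower level (log2 -2.76, SE 0.26, adjusted p = 0.00106, edgeR). Whether there were fewer cells of a type or less RNA per cell cannot be told apart in bulk libraries.

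NK receptors fell together. *Ncr1*, which encodes the activating receptor NKp46, was at 4.53, 4.9 and 7.35 CPM with sh10 and at 70.9, 35, 45.9 and 29.3 CPM with Renilla (log2 -3.01, SE 0.35, adjusted p = 0.00258, edgeR). *Klrb1c*, the NK1.1 antigen of C57BL/6 mice, was at 3.5, 3.13 and 2.86 CPM with sh10 and at 59, 27.2, 26.4 and 24 CPM with Renilla (log2 -3.42, SE 0.38). The groups stood well apart, and Renilla A was the highest library for both receptors. *Klrc1*, an inhibitory NKG2 receptor, fell by 3.42 on the log2 scale, and *Klrd1*, its CD94 partner, fell by 2.79. *Gzma*, a granule protease of killer cells, was at 2.27, 0.588 and 2.25 CPM with sh10 against 30, 28.3, 18.6 and 12.1 CPM, and *Tbx21*, the transcription factor T-bet, was 8.32-fold lower. *Klrb1c*, *Klrc1*, *Klrd1*, *Gzma* and *Tbx21* passed in all 7 fits that left out 1 library.

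Genes shared by T cells and other lymphocytes were lower as well. *Gimap4* and *Gimap3*, GTPases of lymphocyte survival, were 10.7-fold and 13.8-fold lower. *Gimap4* gave 6.59, 6.66 and 6.94 CPM with sh10 and 101, 58.4, 76.9 and 51.8 CPM with Renilla. *Cd2*, an adhesion receptor of T and NK cells, was at 1.57 to 2.47 CPM against 18.8 to 28.5 CPM (log2 -3.40, SE 0.30, adjusted p = 0.000733, edgeR). *Cd3e*, a chain of the T cell receptor complex, had 5, 0 and 3 counts with sh10 and 52, 35, 47 and 67 counts with Renilla, so its level with sh10 rests on few counts. *Ltb*, lymphotoxin beta, was 8.48-fold lower and *Ctsw*, a cysteine protease of cytotoxic lymphocytes, 5.45-fold lower.

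**Figure D1:**
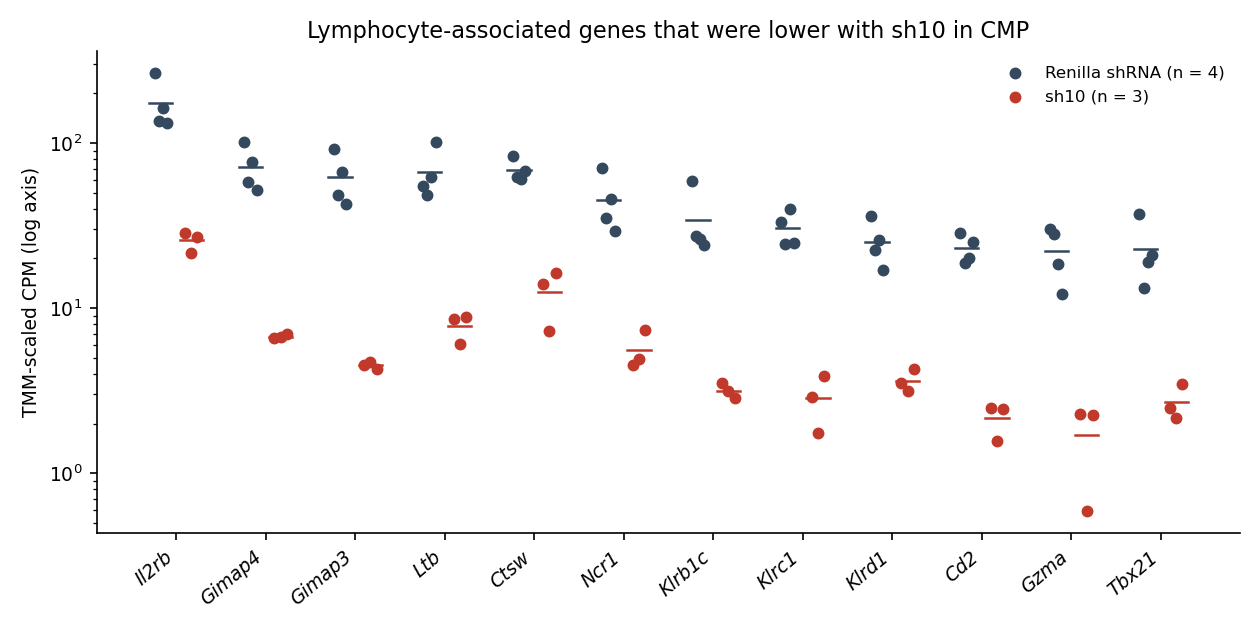
CPM on a log axis of 12 genes that were lower with sh10, with 1 point per library (3 sh10, 4 Renilla) and a line at each group's mean. For every gene shown the 4 Renilla points lie above the 3 sh10 points, and *Il2rb* runs from 21.5 to 28.6 CPM in one group and from 132 to 267 CPM in the other.

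A list of 60 NK, T and innate lymphoid cell genes, chosen after these values were seen, describes the extent of this group and is no independent evidence of it. Of its 55 tested members 49 were lower and 0 higher, and all 55 had a negative log2 fold change (median -2.90, against -0.01 for all genes tested). The list supplied 47 of the 216 genes that fell by more than 1 on the log2 scale and, of called genes whose groups did not overlap and that averaged 50 counts or more per library, 11 of the 12 largest falls. The remaining one was *Col17a1*, a hemidesmosome collagen, at 3.3, 0 and 0.612 CPM with sh10 and 8.54, 10.2, 32.6 and 29.3 CPM with Renilla (adjusted p = 0.022, edgeR, and 0.0712 without sh10 B and 0.085 without sh10 C). Between 35 and 50 list members were lower whichever library was left out, the fewest without sh10 B. Asking at least 10 counts in every library removes members with few counts in the sh10 libraries, and under it 27 were lower (median -2.43). With log2 total counts as a covariate, which cannot be told apart from the shRNA, 0 were lower and the median was -1.33.

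Summed over the 60 genes, the level was 605, 444 and 593 CPM with sh10 and 2530, 1690, 2000 and 1900 CPM with Renilla. Every sh10 sum lay below all 4 Renilla sums. Other marker lists had fewer calls. Of 15 tested macrophage and dendritic cell genes none passed in edgeR (2 at an unadjusted p under 0.05) and 2 were higher in DESeq2. The complement gene *C1qb* stood out in Renilla C at 83.8 CPM against 12.8 to 16.9 CPM in the other Renilla libraries. Without Renilla C the median of the list turned from -0.31 to 0.25 and 2 members were higher (edgeR). *Mmp9*, a protease stored in neutrophil granules, was at 0.824, 0 and 0.408 CPM with sh10 against 5.44, 17.6, 14.9 and 10.9 CPM (log2 -4.83, adjusted p = 0.00568, edgeR). *Mmp9* had 4, 0 and 2 counts with sh10 and 21, 74, 65 and 45 with Renilla, so its level with sh10 rests on few counts. It was the only one called of 3 tested mature neutrophil genes of 15 listed. *Cxcr2*, a chemokine receptor of neutrophils, was too low to test and lay the other way, at 0.824, 1.96 and 2.65 CPM with sh10 against 0, 0.476, 0.23 and 0 CPM. What part sort purity has in these falls was not tested.

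Within the broader list of lymphoid genes, 28 were tested, 13 were lower and 3 were higher. With an offset for exonic length, introduced below, 13 were lower and 0 higher. The 3 that rose without it were *Notch1*, *Ikzf1* and *Blnk*, while the early T lineage factors *Tcf7* (log2 -2.07), *Lef1* (log2 -3.35) and *Gata3* (log2 -1.05) were lower. *Notch1*, the receptor that starts T lineage commitment, was at 28.8, 20.4 and 36.9 CPM with sh10 and at 13.2, 8.58, 14 and 12.6 CPM with Renilla (log2 1.25, SE 0.25, adjusted p = 0.0185, edgeR). *Ikzf1*, the transcription factor Ikaros, rose by 0.52 and *Blnk*, an adaptor of B cell receptor signaling, by 1.45 on the log2 scale. *Blnk* turned to -0.29 when log2 total counts entered as a covariate, which cannot be told apart from the shRNA. *Notch1* did not pass without sh10 A or without sh10 C (adjusted p = 0.0692 and 0.078, edgeR), and *Ikzf1* and *Blnk* each passed in 1 of the 7 fits that left out 1 library (highest adjusted p = 0.118 and 0.215, both without sh10 B).

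The falls were dense at 2 gene clusters of chromosome 6, the chromosome that also carries *Spehd*. Of 15 tested *Klr* receptor genes 12 were lower, and these 12 spread over 1.7 Mb between 128609227 and 130306428 (mm10). Of 9 tested *Gimap* genes 7 were lower, and these 7 lay within 0.0863 Mb. Outside these clusters 33 of 633 chromosome 6 genes were lower (5.21%), against 470 of 12053 on all other chromosomes (3.9%). Both clusters encode lymphocyte proteins and lie far from each other.

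The same shRNA was also sequenced in LSK cells, the Lin-Sca1+Kit+ fraction that holds the stem cells, with 3 sh10 and 4 Renilla libraries. On a scale common to all 14 libraries the 60 lymphocyte genes summed to 614, 458 and 606 CPM in CMP with sh10 and to 2590, 1720, 2020 and 1920 CPM in CMP with Renilla. In LSK they summed to 929, 939 and 853 CPM with sh10 and to 966, 869, 955 and 1130 CPM with Renilla. The LSK groups overlapped, and both lay between the CMP groups. Of 57 list members tested in LSK none passed (edgeR, 8 at an unadjusted p under 0.05), with a median log2 change of -0.23.

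**Figure D2:**
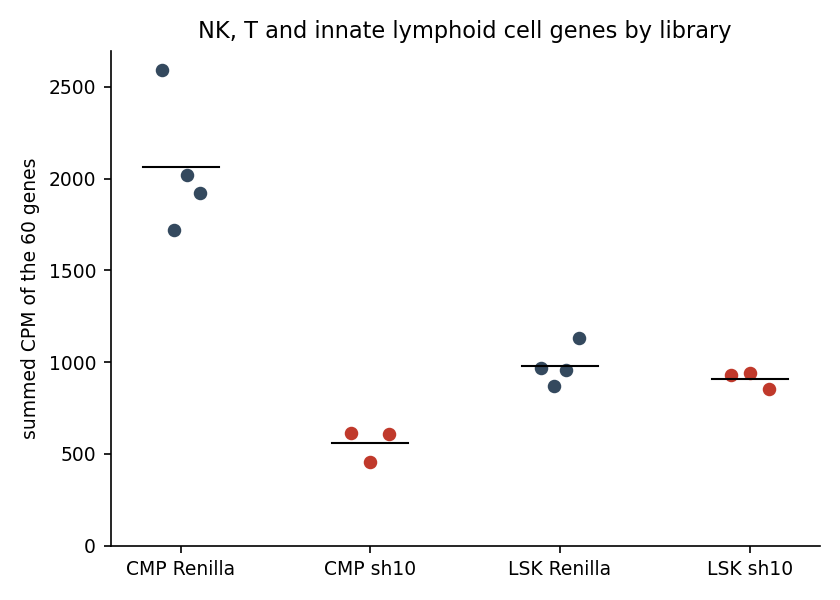
Summed CPM of the 60 NK, T and innate lymphoid cell genes, 1 point per library, on the scale common to the 14 CMP and LSK libraries, with a line at each group's mean. The CMP groups are apart (458 to 614 CPM with sh10, 1720 to 2590 CPM with Renilla) and the LSK groups overlap (853 to 939 and 869 to 1130 CPM).

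The difference between the CMP and LSK effects was tested gene by gene as an interaction over 13958 genes. The sh10 effect was lower in CMP for 3 genes (0.0215%) and higher for 0 (0.0%), and 838 and 649 genes had an unadjusted p under 0.05 in each direction (edgeR). DESeq2 called 68 and 12. *Ctsw* was at 33.6, 48.5 and 30.2 CPM with sh10 in LSK and at 37.8, 35.6, 28.7 and 37.2 CPM with Renilla, and these levels overlapped (interaction log2 -2.54, SE 0.34, adjusted p = 0.0194, edgeR). *Ltb* differed between the cell types by -2.58 on the log2 scale (SE 0.37, adjusted p = 0.0234, edgeR), and passed in 7 of 14 fits that left out 1 library (highest adjusted p = 0.121, without CMP sh10 B). *Ctsw* passed in 12 (highest 0.0651, without LSK Renilla C). Neither passed with the replicate letter as a block (adjusted p = 0.0717 for both, edgeR).

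The third gene, *Ccr9*, a chemokine receptor of lymphoid progenitors and gut-homing T cells, fell short of the abundance asked of named genes and was picked after its values were seen. In CMP it was at 1.24, 0.196 and 0.408 CPM with sh10 and at 17.6, 7.86, 24.8 and 8.96 CPM with Renilla. In LSK the order was the opposite, with 7.35, 4.51 and 4.34 CPM against 0.634, 0.999, 1.37 and 0.216 CPM. Neither pair of groups overlapped, but the LSK difference did not pass its own test (log2 2.74, SE 0.59, adjusted p = 0.525, edgeR). The interaction was -7.28 on the log2 scale (SE 0.87, adjusted p = 0.00806, edgeR) and passed in all 14 fits that left out 1 library.

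Genes known from monocytes and from mast cells were among the largest rises. *F13a1*, the coagulation factor XIII A chain made by monocytes, macrophages and megakaryocytes (chr13:36867178-37050244, minus strand), was at 69, 72.1 and 93.5 CPM with sh10 and at 8.28, 7.62, 10.3 and 7.51 CPM with Renilla. Its 9.23-fold rise was well outside the spread within either group (log2 3.21, SE 0.18, adjusted p = 5.75e-05, edgeR). In LSK its log2 change was -0.01, and the interaction missed the threshold (adjusted p = 0.0507, edgeR). *Irf8*, a transcription factor that directs progenitors to monocytes and dendritic cells, was at 283, 272 and 338 CPM with sh10 and at 67, 45.7, 106 and 111 CPM with Renilla (log2 1.85, SE 0.24, adjusted p = 0.00392, edgeR).

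*Tifab*, an inhibitor of TIFA and TRAF6 signaling, rose 5.31-fold and *Ms4a6c*, a membrane protein of monocytes, 4.2-fold. *Ms4a6c* was at 33.4, 23.3 and 32.9 CPM with sh10 and at 5.69, 4.53, 11.9 and 6.06 CPM with Renilla, without overlap. *Kcng1*, a potassium channel subunit, rose 4.69-fold.

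*Ms4a2*, the beta chain of the IgE receptor of mast cells and basophils, was at 17.5, 20 and 29 CPM with sh10 and at 7.51, 6.91, 5.51 and 3.39 CPM with Renilla (log2 1.92, SE 0.31, adjusted p = 0.00852, edgeR). *Hdc*, the enzyme that makes histamine, was 4.11-fold higher. *Il1rl1*, the receptor for interleukin 33 on these cells, was at 96, 95.8 and 96.6 CPM against 53.8, 68.1, 45 and 51.6 CPM, and did not pass without sh10 A or without sh10 B (adjusted p = 0.0529 in both, edgeR). Of 14 tested mast cell, basophil and eosinophil genes, *Ms4a2* and *Hdc* were higher and 2 were lower. The lower ones were *Fcer1g*, the gamma chain shared by Fc receptors (log2 -0.65, passing in 1 of the 7 fits that left out 1 library), and *Srgn*, a granule proteoglycan (log2 -0.31). *Srgn* was lost without any of the 3 sh10 libraries (adjusted p = 0.071, 0.115 and 0.0714 without A, B and C) and without Renilla D (0.0513). Under the length offset 2 genes of this list were higher and none lower.

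Granule proteins and early myeloid genes gave 2 higher (*F13a1* and *Hdc*) and 4 lower of 21 tested. DESeq2 gave 5 higher and 3 lower, and an offset for exonic length, introduced below, 4 higher and none lower. *Lyz2*, lysozyme, was at 95, 78.4 and 116 CPM with sh10 and at 181, 130, 160 and 148 CPM with Renilla (log2 -0.68, adjusted p = 0.0222, edgeR, but 0.112 with that offset, 0.0838 without sh10 A, 0.0913 without sh10 B and 0.0506 without Renilla A). *Id2*, an inhibitor of E proteins that is also needed for NK cells, was 2.31-fold lower, with an adjusted p of 0.0571 without sh10 A and 0.0668 without sh10 B (edgeR). *Grb10*, an imprinted adaptor that dampens insulin signaling, rose 2.47-fold, with 103, 161 and 87.4 CPM against 51.3, 51, 42 and 45.5 CPM.

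**Figure D3:**
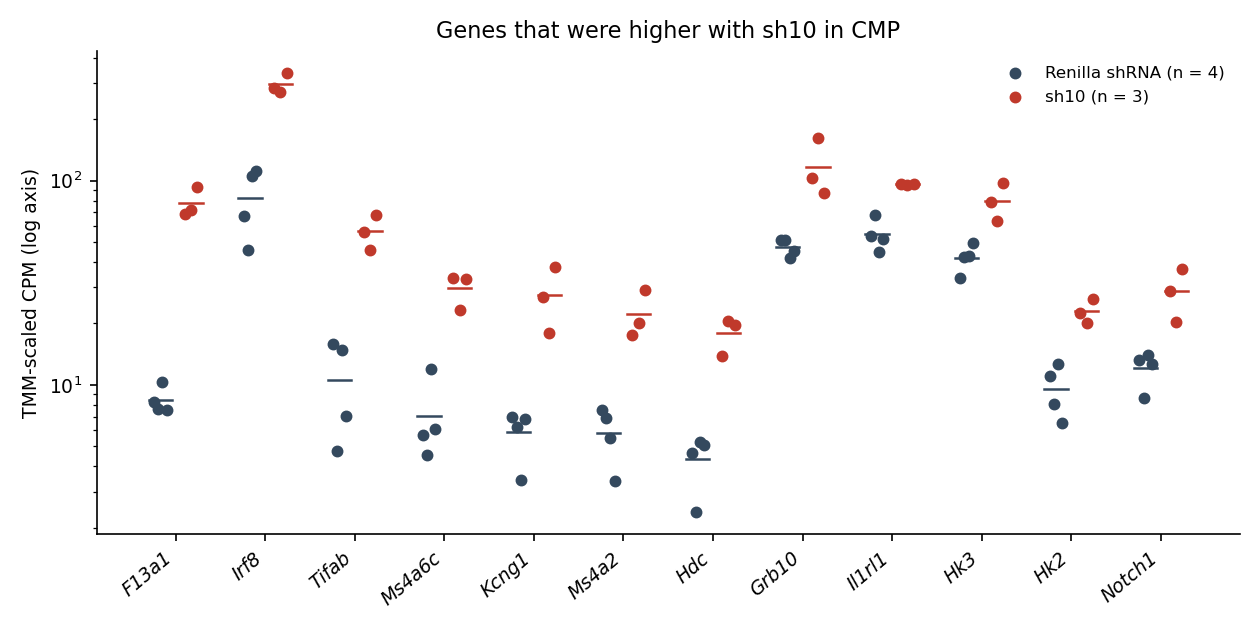
CPM on a log axis of 12 genes that were higher with sh10, 1 point per library and a line at each group's mean. The sh10 points lie above the Renilla points for each gene shown, from 69 to 93.5 CPM against 7.51 to 10.3 CPM for *F13a1*.

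Genes of stem cells and of the megakaryocyte lineage were lower where they passed, beside 4.09% lower among all genes tested. Of 20 tested stem cell markers 8 were lower and none higher (median -0.82, with *Ltb*, described above, among the 8), of 24 stem cell transcription factors 8 were lower and none higher (median -0.26), and of 21 megakaryocyte genes 8 were lower and none higher (median -0.54). *Mecom*, a regulator of stem cell self-renewal, was at 16.9, 14.7 and 20.8 CPM with sh10 and at 30.8, 40.7, 33.1 and 34.9 CPM with Renilla, a 2-fold lower level (log2 -1.0, SE 0.19, adjusted p = 0.0145, edgeR). The groups did not overlap.

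*Mycn*, a MYC family factor, was 2-fold lower, with 98.7, 105 and 164 CPM against 267, 171, 264 and 280 CPM, and sh10 C came close to Renilla B. *Gp9*, a platelet glycoprotein, was 2.34-fold lower and *Pdzk1ip1*, a membrane protein used as a stem cell marker, 1.91-fold lower. *Robo4*, a guidance receptor that holds stem cells in the niche, fell by 1.79 on the log2 scale. *Esam*, an adhesion protein of stem cells and megakaryocytes, fell by 1.38 although its groups overlapped. These lists depended on single libraries. *Mecom*, *Mycn*, *Gp9* and *Pdzk1ip1* had adjusted p values of 0.0515 to 0.0808 without sh10 A and of 0.0565 to 0.0871 without sh10 B (edgeR). Without sh10 A or without sh10 B, 1 stem cell marker and none of the transcription factors or megakaryocyte genes passed, while without Renilla B the lists held 10, 11 and 12 lower genes. Without Renilla A they held 6, 3 and 4, without Renilla C 7, 6 and 4 and without Renilla D 7, 6 and 4, and the median of the megakaryocyte list was -0.32 without Renilla C. With an offset for exonic length, introduced below, they held 8, 5 and 5.

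AP-1, the transcription factor built from Jun and Fos family proteins, and other immediate early genes are switched on within minutes of stimulation, handling included. Of 13 tested AP-1 genes 3 were lower and none higher, and of 25 other immediate early genes 6 were lower and none higher, beside 4.09% lower among all genes. With an offset for exonic length, introduced below, 2 and 4 were lower. *Jun* was at 59.7, 34.5 and 58 CPM with sh10 and at 175, 160, 150 and 269 CPM with Renilla (log2 -1.90, SE 0.24, adjusted p = 0.00387, edgeR). A gene on the opposite strand, *Junos*, overlaps *Jun*, and reads of the pair cannot be told apart without strand. *Jund* was lower by a smaller step, at 119 to 125 CPM against 174 to 206 CPM.

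*Fos* was at 2.88, 2.55 and 2.04 CPM with sh10 and at 15.3, 3.57, 8.5 and 46.7 CPM with Renilla. Its Renilla values spread widely, with Renilla D the highest and Renilla B near the sh10 level. Its adjusted p was 0.0473 (edgeR), and 0.126, 0.154 and 0.144 without sh10 A, B and C. *Klf2*, a factor of lymphocyte and endothelial quiescence, was 4.13-fold lower. *Dusp1*, a MAP kinase phosphatase, was at 21.2, 21.9 and 21.6 CPM against 69.4, 37.2, 54.4 and 94.5 CPM. *Nr4a1*, an orphan nuclear receptor, fell by 1.85 on the log2 scale. *Dusp1* and *Nr4a1* each missed the threshold without any 1 of the sh10 libraries (adjusted p = 0.0516 to 0.0996, edgeR). *Egr1*, often the first of these genes to respond, gave -0.18 with an adjusted p of 0.787 (edgeR). Without sh10 A, or without sh10 B, 1 immediate early gene passed outside AP-1.

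The direction of the smaller changes went with the length of the gene. Genes were divided into 5 groups of 2542 by exonic length. The median log2 change was -0.20 in the shortest group (48 to 2230 bases, 159 lower and 5 higher), -0.10, -0.0 and 0.09 in the middle groups and 0.20 in the longest (7273 to 123179 bases, 38 lower and 317 higher). Genes called lower had a median exonic length of 2960 bases, those called higher 7300 bases and all genes tested 4200 bases. In LSK the medians ran the other way, from 0.08 to -0.12.

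An offset that removes the length trend, added after the data were seen, gave 402 lower and 255 higher genes, of which 301 and 234 were among those above. The share of calls that were higher moved from 54.6% to 38.8%. For the gene lists with calls described below, counts are given with and without it. Of the 60 lymphocyte genes 48 were lower under the offset, against 49 without it. Why length and the shRNA moved together was not tested.

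**Figure D4:**
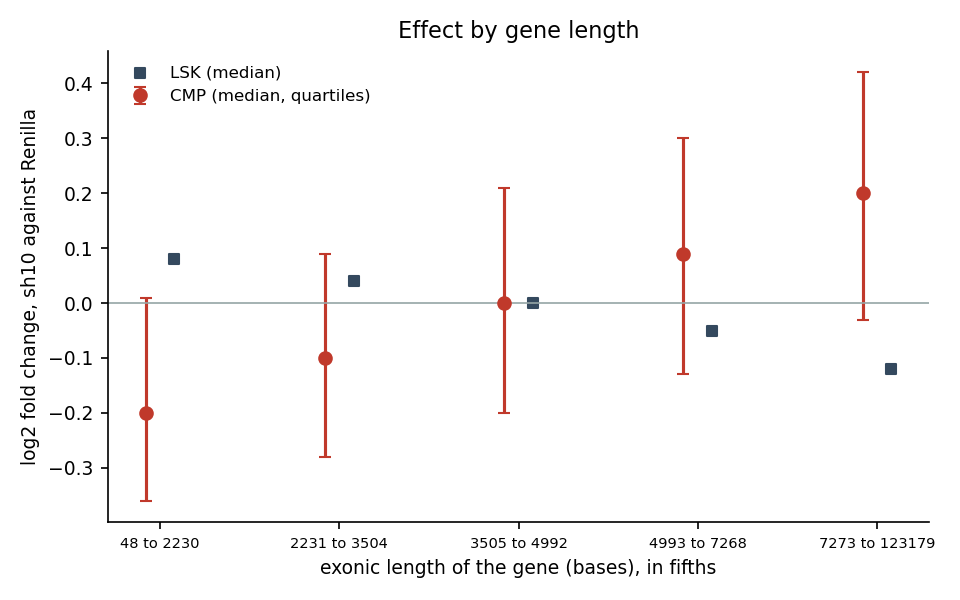
Median log2 fold change of sh10 against Renilla in 5 groups of genes by exonic length, with quartiles for CMP and the medians for LSK. The CMP medians run from -0.20 in the shortest group to 0.20 in the longest, and the LSK medians from 0.08 to -0.12.

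Nuclear pore and transport genes had the largest number of higher genes of the 49 lists. Of 57 tested, 23 were higher and none lower (median 0.31, median exonic length 6240 bases), beside 4.92% higher among all genes tested. With the length offset 11 were higher, beside 255 of all 12784 genes. With the LSK libraries in the fit 2 were higher. Leaving out 1 Renilla library gave 18 to 24. *Nup153*, a basket nucleoporin, was at 212, 199 and 202 CPM with sh10 and at 119, 117, 131 and 122 CPM with Renilla (log2 0.74, SE 0.07, adjusted p = 0.00106, edgeR). The step was small but larger than the spread within either group, and it held with the offset (adjusted p = 0.00523, edgeR). *Xpo1*, the main nuclear export receptor, rose 1.44-fold and *Nup210*, a membrane nucleoporin, 1.5-fold. Without sh10 A, or without sh10 B, 7 of these genes passed, and 13 without sh10 C.

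Mitosis genes followed the same direction, with 9 of 36 higher and none lower, beside 4.92% higher among all genes tested. With the length offset 5 were higher. *Espl1*, the separase that frees sister chromatids, was at 203, 257 and 219 CPM with sh10 and at 147, 131, 136 and 127 CPM with Renilla (log2 0.74, SE 0.09, adjusted p = 0.00345, edgeR). Of 66 chromatin regulators 11 were higher and 1 lower (3 and 2 with the offset), led by adjusted p by *Suz12*, a subunit of the repressor complex PRC2, at 1.5-fold higher. DNA replication genes gave 5 higher and none lower of 44, and 1 each way with the offset. Without sh10 A 3 mitosis, 2 chromatin and 0 replication genes were higher. In the same order the numbers were 3, 3 and 1 without sh10 B and 2, 3 and 1 without sh10 C. With the LSK libraries in the fit they were 1, 0 and 1.

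The small RNA machinery, which also processes the shRNA, gave 4 higher and none lower of 17, beside 4.92% higher among all genes tested. *Xpo5*, which carries hairpins out of the nucleus, rose 1.57-fold, with 214, 252 and 222 CPM against 167, 160, 133 and 125 CPM. *Dicer1* and *Drosha*, the nucleases that cut hairpins, rose by 0.80 and 0.47 on the log2 scale, and *Ago4*, a guide-binding Argonaute, by 1.09. The members are long (median 8120 bases), and 1 passed with the length offset, under which the list's median was -0.01. Without sh10 B none of the 4 passed, with 0.0565 for *Xpo5*, 0.0586 for *Dicer1*, 0.125 for *Drosha* and 0.131 for *Ago4* (adjusted p, edgeR). Both groups express an shRNA.

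Among the metabolic genes, *Hk2* and *Hk3*, hexokinases of the first step of glycolysis, were higher. *Hk3* was at 78.9, 63.3 and 97.6 CPM with sh10 and at 33.4, 42.2, 42.9 and 49.4 CPM with Renilla, and *Hk2* was 2.39-fold higher. Both missed the threshold without sh10 A (adjusted p = 0.0626 for *Hk3* and 0.0678 for *Hk2*, edgeR) and without sh10 C (0.0596 and 0.077), and *Hk2* also without sh10 B (0.0616). Of 25 glycolysis enzymes 2 were lower, and under the length offset 0 were lower and 2 higher.

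Lists of short genes had medians a little below zero and, beside the 4.09% of all genes that were lower, differed in their share of calls. Respiratory complex I gave 1 lower of 36 (median -0.27, and -0.11 with the offset). Its log2 fold changes were negative for 35 members and positive for 1, and 23 lay lower without overlap, beside 14.3% of all genes tested. ATP synthase gave 3 lower of 17, the proteasome 9 lower of 48 and cytosolic ribosomal proteins 3 lower of 81. None of these lists had a higher gene, and with the offset they held 0, 1, 1 and 0 lower genes. Upper quartile scaling gave 10, 5, 17 and 4 lower in the same order, and DESeq2 4, 3, 11 and 3. *Atp5a1*, the alpha subunit of the F1 part of ATP synthase, was at 436, 414 and 421 CPM with sh10 and at 518, 489, 484 and 507 CPM with Renilla (log2 -0.24, adjusted p = 0.0175, and 0.0584 with the offset, edgeR). No complex I, ATP synthase, ribosomal or proteasome gene passed without sh10 A, without sh10 B or without sh10 C.

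Interferon response and antigen presentation genes were lower where they passed, 7 of 46 and 7 of 28 with none higher, beside 4.09% lower among all genes tested. With the length offset 3 and 2 were lower, and with the LSK libraries in the fit 1 and 2. *Irf7*, the main amplifier of the type I interferon response, was at 34.2, 47.2 and 32.3 CPM with sh10 and at 77.9, 62.4, 70.5 and 72.9 CPM with Renilla (log2 -0.90, SE 0.16, adjusted p = 0.0128, edgeR). *H2-K1* and *H2-Q7*, class I histocompatibility genes with near-identical relatives among which reads may be shared, were 1.25-fold and 1.41-fold lower. *Irf7* had an adjusted p of 0.0635 without sh10 A and 0.0528 without sh10 C (edgeR). Without sh10 A neither list had a called gene, and without sh10 B 1 interferon gene passed. Of 22 p53 targets and 18 BCL2 family genes none passed in edgeR (7 and 6 at an unadjusted p under 0.05), and DESeq2 called 2 lower of the first and 4 lower and 1 higher of the second.

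**Figure D5:**
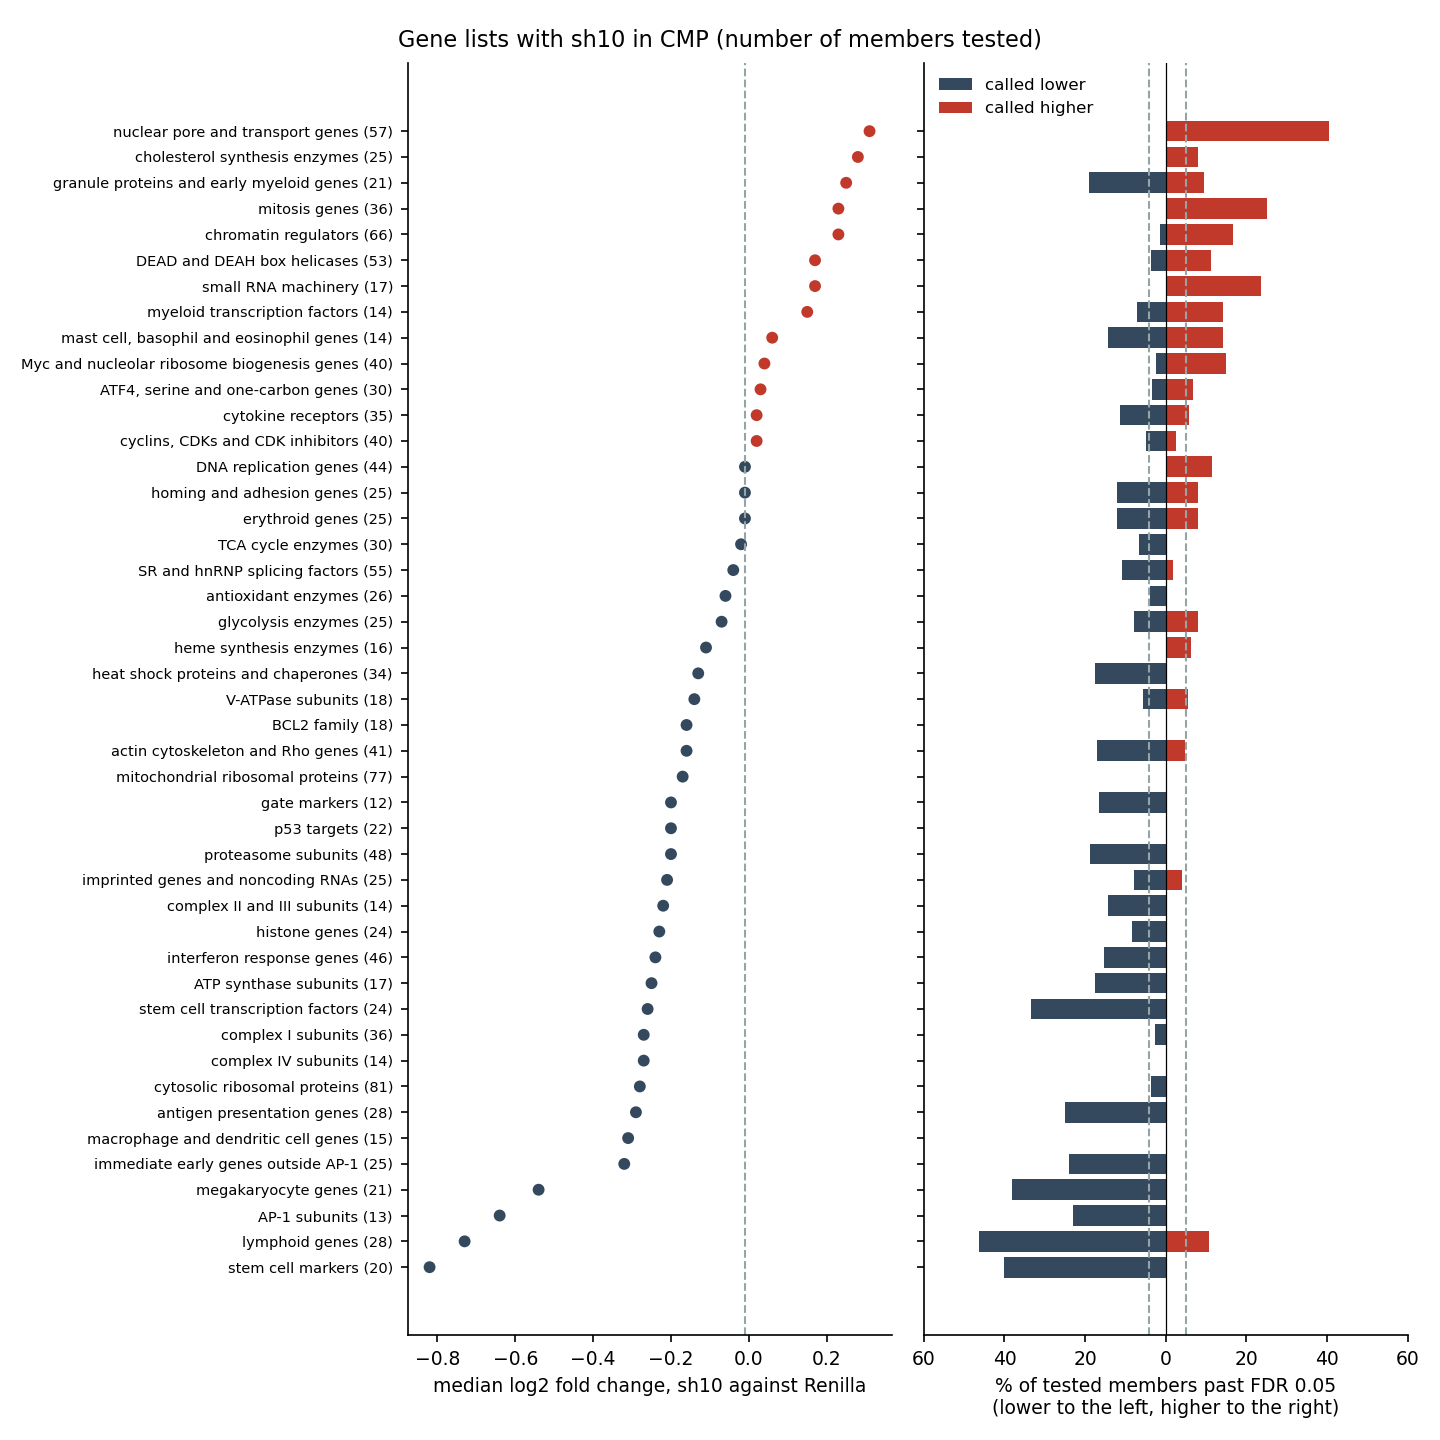
For each gene list with at least 10 tested members, the median log2 fold change of sh10 against Renilla in CMP and the percentage of members called lower and higher, with dashed lines at the values for all genes tested. Nuclear pore genes stand at a median of 0.31, and most lists lie near zero. The NK, T and innate lymphoid cell list, chosen after the values were seen, is not drawn.

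*Spehd* was predicted beside *Gata2* and *Rpn1* on chromosome 6. *Gata2*, a transcription factor of stem cells, mast cells and megakaryocytes (chr6:88193891-88207032, plus strand), was at 409, 410 and 480 CPM with sh10 and at 548, 504, 539 and 559 CPM with Renilla. The groups did not overlap, and the level was 1.24-fold lower (log2 -0.31, SE 0.07, adjusted p = 0.022, edgeR, and 0.0142 with the length offset). The adjusted p was 0.09 without sh10 A, 0.0984 without sh10 B and 0.0504 without Renilla A. *Rpn1*, a subunit of the enzyme that glycosylates nascent proteins, gave -0.17 (adjusted p = 0.0709, edgeR). *Gm38708*, an annotated noncoding gene there, lay between 0.484 and 2.38 CPM and was too low to test.

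Within 1 Mb on either side of the predicted locus, 31 of 75 annotated genes were tested. Of the 31, 4 were lower and none higher (median -0.1), beside 4.09% lower and 4.92% higher among all genes tested. The 4 were *Gata2*, *Gp9*, *Efcc1*, a coiled-coil gene (log2 -1.0), and *Cnbp*, a nucleic acid binding protein (log2 -0.23). *Efcc1* and *Cnbp* were named after their values were seen. Without sh10 A or without sh10 B none of the 4 passed (adjusted p = 0.071 to 0.126, edgeR).

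Seed matches in 3′ UTRs were compared for both guides over 11316 genes. The 7 bases that pair with the sh10 seed, ACTTTGT, were present in the 3′ UTR of 2345 genes (20.7%). Their median log2 change was 0.08, with 3.07% lower and 6.78% higher, against -0.0, 4.37% and 5.47% for all 11316. The match for the Renilla guide, CTTATCT, was held by 1044 genes (9.23%), with a median of 0.09, 2.3% lower and 8.05% higher. Genes with the sh10 match have longer 3′ UTRs (median 2530 bases against 1360 for all). Within 5 groups with near-equal numbers of genes by UTR length, in which genes with the match still had somewhat longer UTRs, the medians with and without it were -0.21 and -0.17, -0.08 and -0.08, -0.0 and 0.01, 0.09 and 0.07, and 0.19 and 0.17. The search was of the transcript strand and of these letters only, and says nothing on whether any match is a site.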

How the data were processed

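Per the labels and the study's methods, RNA of sorted cells was amplified with SMART-Seq v4 and sequenced, and the authors aligned reads to mm10 with STAR, removed duplicates with Picard and counted reads per gene with HTSeq on GENCODE vM11. The deposited files hold raw counts per gene for 54352 genes. Library strand is not given in the sources used here. Reads that HTSeq matched to no gene feature took 51.95% to 53.44% of the uniquely aligned reads of the 7 libraries. They were left out of library sizes.

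Genes were kept with filterByExpr (at least 10 counts, total 15), scaled by TMM and tested with the edgeR 4.0.16 quasi-likelihood test on 3 sh10 and 4 Renilla libraries with no covariate, at an adjusted p of 0.05. The interaction used the 14 CMP and LSK libraries. Alternatives were DESeq2 1.42.0, limma voom 3.58.1, other scalings, filters, thinned counts, covariates and leaving out each library. An offset for exonic length (lowess span 0.3) was added after seeing the data. Log CPM for correlations used a prior count of 2. No pair of replicates within a group was a duplicate. Lengths, 3′ UTRs and coordinates came from GENCODE vM21 (mm10), which held 12710 of the 12784 genes tested.

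Named genes were the 12 largest changes each way without overlap and with a mean of at least 50 counts, up to 4 genes each way from each of 49 lists, gate markers, *Gata2*, *Rpn1*, *Gm38708*, *Jun*, *Fos* and *Egr1*, and up to 5 interaction genes each way. A few genes that this rule names are not reported here. The members and lists were chosen with earlier results of these data known.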

Additional observations from a re-analysis of the deposited data

Results flagged for a closer look

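Among 186 named genes, a single Renilla library stood far from the other 3 for 4 genes, and chance gives about 1 such group in 20. *Klrb1c* was at 59 CPM in Renilla A against 24 to 27.2 CPM in the others, and *Ndufs4*, a complex I subunit, was at 78.4 CPM in Renilla A against 88.4 to 90.4 CPM. *Mycn* was at 171 CPM in Renilla B against 264 to 280 CPM, and *Hdc* at 2.38 CPM in Renilla B against 4.66 to 5.28 CPM.

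The sh10 effect differed between CMP and LSK by the interaction test (edgeR) for 3 genes, by -7.28 for *Ccr9*, -2.54 for *Ctsw* and -2.58 for *Ltb* on the log2 scale. The groups did not overlap for *Ccr9* in either cell type, lower with sh10 in CMP and higher in LSK, where the difference alone did not pass (log2 2.74, adjusted p = 0.525, edgeR).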

How the results depend on the processing

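Every sh10 library was deeper than every Renilla library, so depth cannot be told apart from the shRNA. With log2 total counts as covariate 0 genes were lower and 0 higher (edgeR, 336 and 373 at an unadjusted p under 0.05), and the sign turned for *Stat5b* (-0.09), *Car1* (0.03), *Car2* (0.08), *Bcl11a* (-0.05), *Blnk* (-0.29), *Pole* (-0.08), *Mcm10* (-0.29), *Hsp90ab1* (0.06), *Cct5* (0.03), *Atp5b* (0.0), *Atp6v0a1* (-0.12), *Mdh2* (0.03), *Ldha* (0.06), *Gpx1* (0.01), *Rpl4* (0.03), *Hnrnpu* (0.04), *Srsf2* (0.07), *Myh9* (-0.34) and *Wasf2* (-0.51). The cause was not tested. With counts thinned to the smallest total, 481 genes were lower and 585 higher.

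Lower and higher genes numbered 205 and 95 with the LSK libraries in the fit, 842 and 1334 with no filter on low counts, 859 and 514 with upper quartile scaling, 739 and 1052 with DESeq2, and 402 and 255 with the offset for exonic length. Leaving out 1 library gave 70 to 654 lower and 82 to 823 higher. In none of these fits was a gene called in the direction opposite to its call in the 7 library edgeR fit. The interaction gave 68 lower and 12 higher genes with DESeq2, and 1 to 22 lower and 0 to 18 higher when 1 library was left out, the most without LSK sh10 C.

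Deviations of same-lettered sh10 and Renilla CMP libraries correlated by -0.0319, 0.0676 and 0.102, and those of differently lettered ones by -0.182 to 0.117. So few pairs cannot show whether the letters pair these libraries. Same-lettered CMP and LSK libraries of 1 shRNA correlated by 0.0215 to 0.227, and 6 of the 7 CMP libraries did so best with their own letter, a hint from the data and not the design. The fit with replicate block gave 347 lower and 448 higher genes, and 1 lower and 1 higher for the interaction, where *Ccr9* passed (adjusted p = 0.0108, edgeR) and *Ctsw* and *Ltb* did not.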
